A study of Arabidopsis thaliana with 22 samples.

Results

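The subject was the transcript difference between dark-grown Arabidopsis thaliana seedlings that lack most or all phytochromes and dark-grown wild type. A probe set was kept as a member when its log2 intensity in all 6 dark mutant arrays lay above, or in all 6 lay below, its value in all 4 dark wild-type arrays. This kept 2813 of 22746 probe sets, 12.4%, of which 1338 (5.88%) were higher and 1475 (6.48%) lower in the mutants. A gene is named for 782 of the higher and 767 of the lower members, and 93 and 117 of these carry a symbol, the rest a locus code only.

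Gene expression was measured on Affymetrix ATH1 arrays, a 3' expression array, with 1 array per RNA sample of whole seedlings 4 days old, all in the Ler (Landsberg erecta) background. The phyABCDE quintuple mutant lacks phytochromes A to E, and the phyABDE quadruple mutant keeps phytochrome C alone; each had 3 dark arrays. All seeds had spent 4 days in the cold and dark and then received 3 h of white light before growth in darkness, so none of the seedlings compared was without earlier light. Wild type had 4 dark arrays, of which replicate 1 was labelled with the same kit as the mutants, while replicates 2 to 4 came from an earlier deposit and were labelled with another kit. Arrays of 22 samples in all were used to estimate the spread, among them continuous red light at 50 µmol per square metre and second (R50; 6 mutant and 2 wild-type arrays, the latter from the earlier deposit) and 2 h of red light after darkness (DR2h; 4 mutant arrays). The sample titles call the arrays of a group biological replicates, and nothing more is said about separate cultures, so p-values measure the spread between these samples.

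Phytochromes are red and far-red light receptors that switch between an inactive and an active form, and the active form moves to the nucleus, where it acts on PIF transcription factors. Dark-grown seedlings elongate the hypocotyl, keep closed cotyledons and hold back the photosynthetic machinery until light arrives. Phytochromes also promote seed germination, during which the transcripts of seed maturation, such as those of storage and desiccation proteins, are normally lost. Phytochrome transcripts are not analysed here, since no probe set given is named for them, so the genotype labels were not checked on the targeted genes.

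Median intensities of the 22 arrays lay between 40.2 and 44.9, and the number of arrays limits the precision. Over the probe sets (which are not replicates of each other), dark arrays correlated at 0.989 to 0.993 within phyABCDE, 0.991 to 0.992 within phyABDE and 0.987 to 0.991 among wild-type replicates 2 to 4. Wild-type replicate 1 correlated with the other wild-type arrays at 0.978 to 0.982. The kit and the earlier deposit coincide and cannot be told apart. Each member is therefore given with 2 differences, one against wild-type replicate 1 and one against the mean of replicates 2 to 4. The linear model (limma, with a term for the kit) sets the mutants against dark wild type through replicate 1 alone, and its 95% half-width for a log2 difference was 0.40 at the median. The rule used the same contrast and arrays, so levels, folds and limma calls of members in darkness are a description of how members were chosen. The dark p-values of members, and calls kept under other settings, are therefore no separate support.

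Members split into a small group with very large differences and a large group with small ones. The median difference was 0.63 on the log2 scale among the higher and -0.57 among the lower members, beside -0.01 over all probe sets. At least 2-fold differences against both kinds of wild-type array were found for 201 higher and 37 lower members, and at least 4-fold ones for 118 and 3. The count of 37 was 58 without phyABDE replicate 1 and 546 without wild-type replicate 1. At least 16-fold differences were found for 51 higher members and 1 lower member, whose probe set is unnamed. At the edge of the rule, TET9 among the higher members cleared wild type by 0.00084 log2 units and 4CL8 missed by 0.0021, while among the lower TON1B cleared it by 8.1e-05 and CR4 missed by 0.0030.

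**Figure D1:**
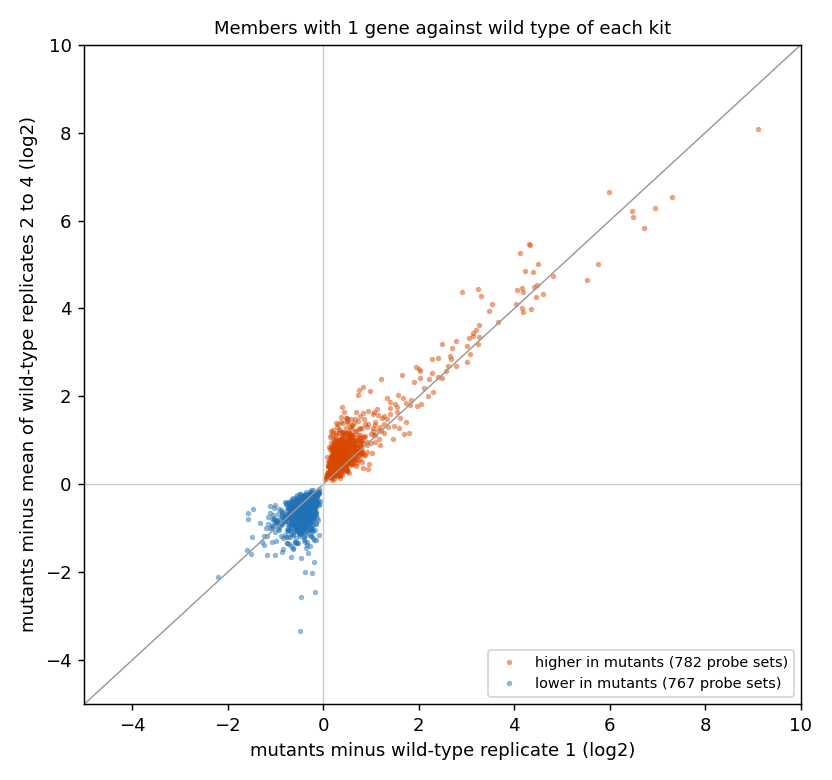
Each point is a member with 1 gene (782 higher, 767 lower). The x axis gives the log2 difference of the mutant mean to dark wild-type replicate 1 and the y axis the difference to the mean of replicates 2 to 4; the line marks equal values. A tail of higher members runs along the line up to 9.09 and 8.08 for M17, while the lower members stay close to the origin.

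M17, a late embryogenesis abundant (LEA) protein gene, and PAP85, a vicilin-like seed storage protein gene, had the largest differences of the higher members with a named gene. Next among those with a symbol were the seed defensin gene LCR67, the beta-glucosidase gene BGLU19, the MADS-box gene AGL67, which is known from seed desiccation, and a dehydrin gene named LEA in the annotation. Log2 intensities of these 6 genes lay between 2.39 and 6.68 in dark wild type and between 8.26 and 12.19 in dark phyABCDE.

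M17 (AT2G41260) had log2 intensities of 12.14, 12.03 and 11.77 in phyABCDE, of 9.75, 11.92 and 11.28 in phyABDE, and of 2.39, 3.15, 2.47 and 4.59 in dark wild type. All mutant arrays were high, with phyABDE replicate 1 lowest among them, and replicate 4 was the highest of the wild-type arrays. The mutant mean was 546-fold above wild-type replicate 1 and 270.5-fold above the mean of replicates 2 to 4 (limma log2 difference 9.09 ± 0.93 SE, adjusted p = 1.9e-05).

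PAP85 (AT3G22640) followed the same order, with 12.19, 12.00 and 12.15 in phyABCDE, 8.91, 11.40 and 10.73 in phyABDE, and 3.93, 3.53, 4.53 and 6.02 in wild type. Its level was 158-fold higher against replicate 1 and 93.0-fold higher against replicates 2 to 4 (log2 difference 7.30 ± 1.03, limma adjusted p = 0.00066). Here too phyABDE replicate 1 came closest to wild type, and wild-type replicate 4 closest to the mutants.

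LCR67 (AT1G75830, a member of the defensins, small antimicrobial peptides) read 10.66, 10.57 and 10.44 in phyABCDE, 8.07, 10.25 and 9.75 in phyABDE, and 4.21, 4.42, 3.74 and 6.68 in wild type. BGLU19 (AT3G21370) read 9.54, 9.48 and 8.81, then 6.84, 9.38 and 8.67, against 3.97, 4.06, 3.80 and 4.32. AGL67 (AT1G77950) read 8.26, 8.34 and 8.68, then 5.41, 7.62 and 6.43, against 3.06, 2.61, 2.52 and 2.77. In each of these genes the groups were far apart, and the lowest mutant array was again phyABDE replicate 1. The folds against replicate 1 and against replicates 2 to 4 were 53.7 and 32.2 for LCR67, 28.1 and 26.5 for BGLU19, and 21.1 and 28.3 for AGL67, with limma adjusted p-values of 0.0052, 0.0021 and 0.0024.

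The dehydrin gene LEA (AT2G21490) read 9.81, 9.74 and 9.42 in phyABCDE, 6.60, 9.01 and 7.90 in phyABDE, and 4.52, 3.06, 3.18 and 5.42 in wild type. Its limma call (4.23 ± 0.98, adjusted p = 0.029) was lost with 16 added to the intensities (3.54). M10, another LEA gene, ran from 9.24 to 10.24 in phyABCDE, from 7.05 to 8.87 in phyABDE and from 3.69 to 6.18 in wild type. PDF2.1, a defensin gene, ran from 7.97 to 8.88, from 4.72 to 7.08 and from 2.64 to 3.97 in the same order. ATOEP16-2, which encodes a seed form of a plastid outer envelope channel, had 8.79 to 9.61, 6.02 to 8.31 and 3.83 to 5.97, so that phyABDE replicate 1 cleared the highest wild-type array narrowly and the gene did not pass the limma threshold (3.25 ± 0.92, adjusted p = 0.076).

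Another 10 of the 15 largest differences belonged to genes known here by locus only. Among them, AT3G05260 was 123-fold higher against replicate 1 and 78.0-fold against replicates 2 to 4, AT1G14950 90.1-fold and 68.0-fold, and AT5G45690 88.1-fold and 74.1-fold. Their levels in wild type lay between 3.09 and 4.44 in every array. AT3G56350, AT1G54870, AT1G14930, AT1G27461, AT3G01570, AT1G54860 and AT1G04560 made up the rest. Of the 15 genes, AT3G01570 and AT1G04560 alone lost their call under an alternative, the addition of 16 to the intensities, at log2 differences of 4.22 and 4.09.

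**Figure D2:**
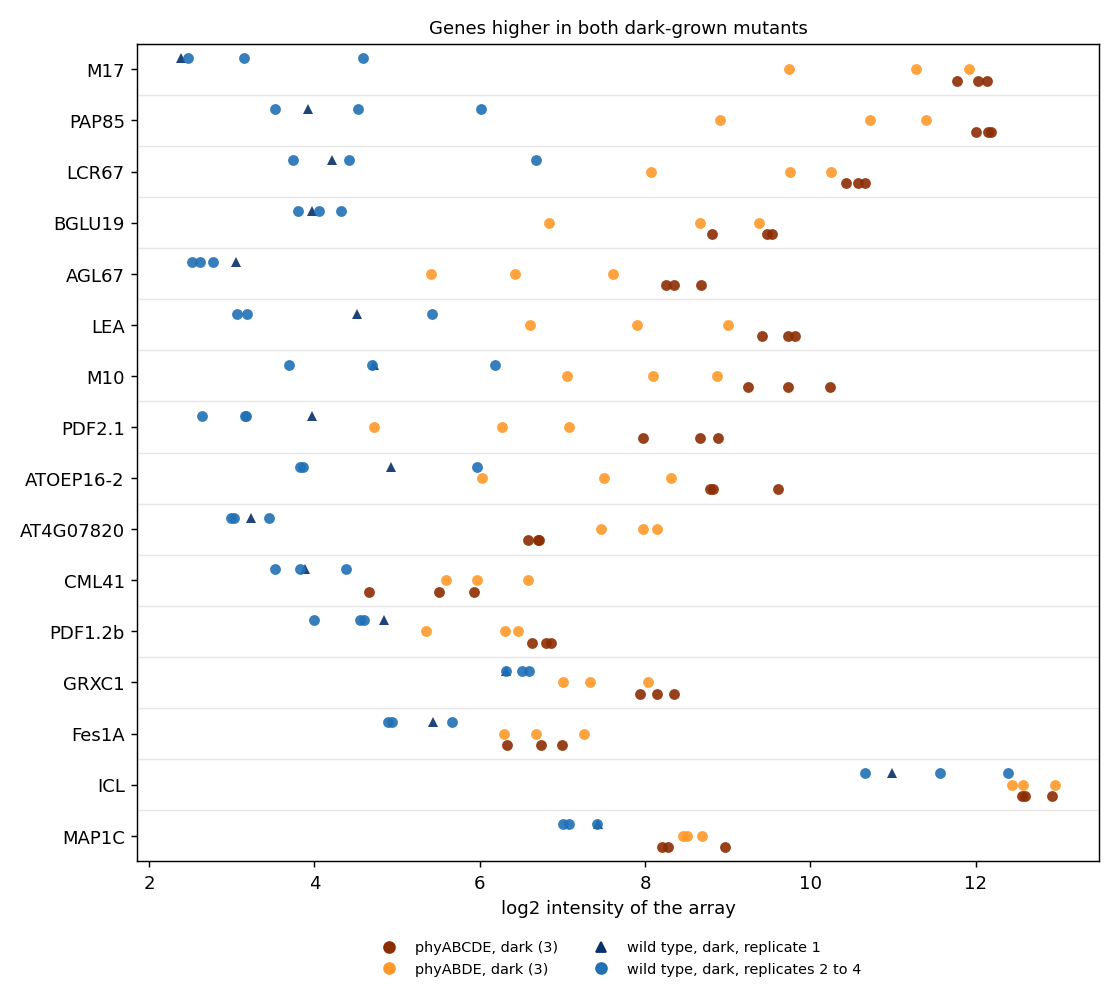
The log2 intensity of 16 genes is shown in each of the 10 dark arrays (3 phyABCDE, 3 phyABDE, 4 wild type; the triangle is wild-type replicate 1). Seed genes from M17 to ATOEP16-2 spread widely among phyABDE arrays, AT4G07820 is higher in phyABDE than in phyABCDE, and the genes from CML41 to MAP1C differ from wild type by less.

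The order among arrays was shared by nearly all of the 118 higher members with at least 4-fold differences. In 113 of them phyABDE replicate 1 was the mutant array nearest wild type, and in 82 all 3 phyABCDE arrays lay above all 3 phyABDE arrays. How often all probe sets show that second order was not counted, and the 118 were chosen on these same arrays. The highest and lowest array differed by 2.27 log2 units within phyABDE and by 0.63 within phyABCDE at the median. Over all probe sets phyABDE replicate 1 was the lowest mutant array in 14.3%. Without this array, 135 members reached 4-fold, among them all 118.

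The seed genes were also followed as whole lists. Of the 8 planned seed markers (7 LEA genes and the oleosin gene OLEO3), 1 was a member, LEA, and the limma fit called it and LEA18 higher, beside 1.07% of all probe sets called higher. LEA18, AtLEA4-1 and LEA4-5 had log2 differences of 2.94, 2.84 and 2.80, while OLEO3, an oil body protein gene, had -0.06 and the other 3 LEA genes -0.29, -0.24 and -0.02. OLEO3 was the 1 gene that the seed storage and oil body list matched by name, so that list says nothing of other such genes. The summed intensity of the 8 markers ran from 7683 to 8672 in phyABCDE, from 3752 to 6478 in phyABDE and from 3609 to 4540 in dark wild type, where phyABDE replicate 1 lay inside the wild-type range. In whole seedlings, more or fewer cells of a kind and more or less RNA per cell cannot be told apart.

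A longer list of 13 seed maturation genes was drawn up after values had been seen. It had 5 members, all higher (M17, PAP85, LEA, M10 and ATOEP16-2), beside 5.88% of all probe sets. It also had 6 limma calls, all higher, beside 1.07% of all probe sets. Its median difference was 2.84. The mean log2 level of the 13 genes was 9.92, 9.77 and 9.60 in dark phyABCDE, 7.81, 9.42 and 8.74 in dark phyABDE, and 6.31, 5.60, 6.12 and 7.14 in dark wild type. Dark mutants and dark wild type did not overlap in this mean, with phyABDE replicate 1 and wild-type replicate 4 nearest to each other. This is partly built in, since the rule kept 5 of the 13 genes for not overlapping in these same arrays. The DR2h arrays, which the rule did not use, stood at 9.84 and 9.46 in phyABCDE and at 9.46 and 9.40 in phyABDE.

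**Figure D3:**
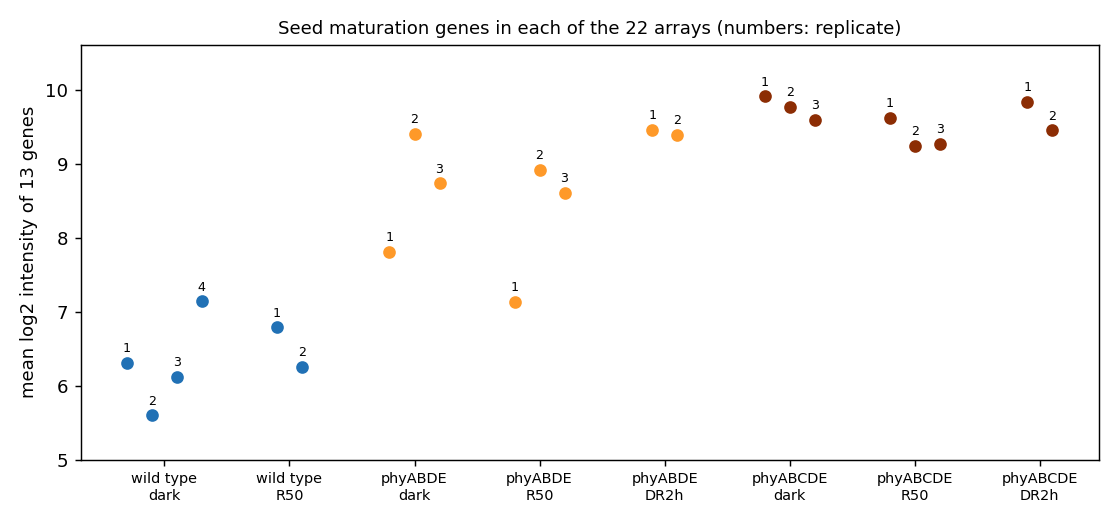
The mean log2 intensity of 13 seed maturation genes is shown for each of the 22 arrays, grouped by genotype and light, with the replicate number above the point. Dark phyABCDE arrays lie between 9.60 and 9.92 and dark wild type between 5.60 and 7.14, while replicate 1 of phyABDE is the lowest of its group in darkness (7.81) and under R50 (7.14).

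AT4G07820 was set apart from the seed genes by the order of its arrays. Its log2 intensity was 6.72, 6.58 and 6.70 in dark phyABCDE, 7.47, 8.14 and 7.97 in dark phyABDE, and 3.23, 2.99, 3.45 and 3.03 in dark wild type. All mutant arrays were high, and phyABDE replicate 1 was no lower than phyABCDE. The folds were 16.4 against replicate 1 and 17.3 against replicates 2 to 4. Under R50 the mutant arrays ran from 5.91 to 7.67 and the wild-type arrays read 3.71 and 3.15, a log2 difference of 3.52 ± 0.24 (limma adjusted p = 1.0e-09) that kept its call in 15 of 15 alternatives.

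Outside the seed genes, higher members with a symbol included genes of protein folding, calcium signalling and redox control, at about 2-fold to 4-fold. CML41, a calmodulin-like protein gene, read 4.67, 5.93 and 5.50 in phyABCDE, 5.97, 6.58 and 5.59 in phyABDE, and 3.88, 4.39, 3.82 and 3.53 in wild type. GRXC1, a glutaredoxin gene, read 8.35, 8.15 and 7.94, then 7.0, 8.04 and 7.33, against 6.32, 6.60, 6.51 and 6.32. Fes1A, a partner of the Hsp70 chaperone, read 6.33, 6.99 and 6.74, then 6.30, 7.26 and 6.68, against 5.44, 4.93, 4.89 and 5.67. The mutants overlapped in CML41 and Fes1A, whereas GRXC1 followed the seed genes in having phyABDE replicate 1 lowest.

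GRXC1 passed the limma threshold (1.48 ± 0.31, adjusted p = 0.015) and kept it in all 18 alternatives. For every gene, those that drop wild-type replicates 2, 3 or 4 cannot move the dark estimate, which rests on replicate 1. CML41 did not pass (1.83 ± 0.48, adjusted p = 0.058). Fes1A passed (1.28 ± 0.31, adjusted p = 0.040), but its call was lost without phyABCDE replicate 2 (1.2) or 3 (1.27), without phyABDE replicate 2 (1.15) or 3 (1.30), with only the arrays compared (1.28) and with 16 added (1.04). Hop3, a co-chaperone that links Hsp70 to Hsp90, was 2.93-fold and 3.15-fold higher, and PDF1.2b, a defensin gene known to respond to jasmonate, read 2.94-fold and 4.06-fold above wild type without passing the limma threshold (adjusted p = 0.089).

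ICL, isocitrate lyase of the glyoxylate cycle, through which seedlings turn stored fat into sugar, was the single measured gene of its list and a higher member. It read 12.60, 12.92 and 12.56 in phyABCDE, 12.58, 12.96 and 12.44 in phyABDE, and 10.98, 10.66, 11.57 and 12.39 in wild type. Wild-type replicate 4 came within 0.054 units of the lowest mutant array, and the mutants overlapped. MAP1C, a methionine aminopeptidase gene, was 2.13-fold and 2.55-fold higher. Calmodulin-like genes had 3 higher members of 8 (CML41, CML38 and CML37), beside 5.88% of all probe sets, and 0 limma calls (3 at an unadjusted p under 0.05). Their median difference was 0.24, but 0.03 against replicate 1 and 0.41 against replicates 2 to 4. Defensins had 3 higher members of 13 (LCR67, PDF2.1 and PDF1.2b), 2 limma calls, both higher, and a median of 0.18. The calmodulin-like and defensin lists were added after values were seen.

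Subunits of nuclear RNA polymerases, the enzymes that transcribe nuclear genes, had 4 higher members of 12, beside 5.88% of all probe sets. This list was added after values were seen. It had no limma call and 5 genes at an unadjusted p under 0.05, beside 14.9% of all probe sets. The median was 0.42, with 11 of the 12 differences positive, but 0.24 against replicate 1 and 0.49 against replicates 2 to 4. NRPE7 was 1.53-fold and 2.53-fold higher, NRPD7 1.51-fold and 1.97-fold, NRPC2 1.40-fold and 1.61-fold, and NRPA2 1.32-fold and 1.38-fold. The differences of NRPE7 and NRPD7 were thus larger against wild-type replicates 2 to 4 than against replicate 1.

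The lower members were smaller in effect and more varied in role. The named genes with the largest differences included the sugar transporter genes SWEET3 and SWEET17, the wax ester synthase gene WSD1, LigB, which encodes a ring-cleaving dioxygenase, and genes of the photosynthetic apparatus. The lower members among the 25 named by size had folds between 1.65 and 4.59 against wild-type replicate 1. Of these 25 genes, 13 passed the limma threshold, beside 0.892% of all probe sets called lower, but the rule used the same arrays and nothing is read from that count.

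SWEET3 (AT5G53190) read 5.53, 5.30 and 5.34 in phyABCDE, 6.47, 5.79 and 6.30 in phyABDE, and 7.29, 7.78, 7.11 and 7.19 in wild type. SWEET17 (AT4G15920), a fructose carrier of the vacuole, read 4.60, 4.32 and 4.24, then 4.40, 4.03 and 4.61, against 5.93, 4.72, 5.59 and 5.16. SWEET3 was lowest in phyABCDE, while SWEET17 was alike in both mutants and had wild-type replicate 2 close to them. SWEET3 (-1.5 ± 0.29, limma adjusted p = 0.0098) and SWEET17 (-1.57 ± 0.24, adjusted p = 0.0017) kept their calls in every alternative in which they were tested. Of 16 SWEET genes, a list added after values were seen, 3 were lower members, beside 6.48% of all probe sets. The third was SWEET16 at 1.59-fold and 1.51-fold, and the median over the family was -0.04.

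WSD1 (AT5G37300) read 3.02, 2.90 and 3.04 in phyABCDE, 3.42, 3.25 and 3.79 in phyABDE, and 4.84, 4.87, 5.01 and 4.34 in wild type, all low intensities. LigB (AT4G15093) read 8.76, 8.26 and 8.59, then 8.34, 8.47 and 8.30, against 9.68, 9.82, 9.62 and 9.47. Its groups were narrow and 0.71 units apart at their nearest arrays, and the mutants were 2.34-fold below replicate 1 and 2.27-fold below replicates 2 to 4. Both genes passed the limma threshold (WSD1 -1.60 ± 0.28, adjusted p = 0.0037; LigB -1.23 ± 0.21, adjusted p = 0.0036) in all alternatives tested.

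Several lower members belong to the chloroplast's light reactions although all 10 arrays came from darkness. NdhL, a subunit of the chloroplast NDH complex, which takes part in cyclic electron flow, read 5.85, 6.04 and 6.39 in phyABCDE, 6.96, 6.52 and 7.07 in phyABDE, and 7.55, 7.57, 8.11 and 7.67 in wild type. NdhS, another subunit, read 7.53, 7.59 and 7.66, then 8.19, 8.11 and 7.97, against 8.61, 8.43, 8.84 and 8.44. LHCB4.2, an antenna protein of photosystem II, read 8.14, 7.86 and 8.71, then 9.25, 8.63 and 9.29, against 9.80, 9.29, 9.51 and 9.80. In NdhL and NdhS phyABCDE was lowest, phyABDE intermediate and wild type highest, with no overlap. For LHCB4.2 the highest phyABDE array came within 0.0070 units of the lowest wild-type array.

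NdhS passed the limma threshold (-0.77 ± 0.19, adjusted p = 0.046), but not with any of the following arrays left out: phyABCDE replicates 1 (-0.75), 2 (-0.77) and 3 (-0.78) and phyABDE replicates 2 (-0.77) and 3 (-0.74). NdhL (-1.08 ± 0.29, adjusted p = 0.063) and LHCB4.2 (-1.16 ± 0.36, adjusted p = 0.11) did not pass. Most other photosynthesis genes measured were not members. The 2 lists that follow were added after values were seen, and 6.48% of all probe sets were lower members. Of 9 light-harvesting and photosystem genes LHCB4.2 was the single member. The median difference of the list was -0.17, with -0.31 against replicate 1 and -0.10 against replicates 2 to 4. In this list 7 differences were negative and 2 positive, and limma called 0 (3 at an unadjusted p under 0.05). Of 9 nuclear genes for NDH subunits and NDH assembly or editing, NdhL and NdhS were members, PIFI had -0.74, and the median was -0.13. Here 5 differences were negative and 4 positive, and limma called 1 gene lower (3 at an unadjusted p under 0.05).

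Genes of the plastid genome differed between the 2 kinds of dark wild-type array. Of 69 measured, none was a member, beside the 12.4% of all probe sets kept, and the median difference was 0.22 against wild-type replicate 1 and -0.88 against replicates 2 to 4. The limma fit with the kit term called 0 of them, and 0 had an unadjusted p under 0.05. Without the kit term, the fit called 6541 probe sets over the whole array in place of 446 (1.96%), and 7881 when replicates 2 to 4 were the only dark wild type.

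A few genes of cell growth and the cytoskeleton were lower members, beside 6.48% of all probe sets. Of 9 tubulin and tubulin-folding genes, 4 tubulins were members and the median was -0.27. TUB1 read 10.25, 10.26 and 10.33 in phyABCDE, 9.94, 9.95 and 9.99 in phyABDE, and 10.51, 10.70, 10.60 and 10.96 in wild type, so that the groups were close together yet separate. TUA1, TUB6 and TUB9 were 1.29-fold, 1.19-fold and 1.16-fold lower against replicate 1 and 1.68-fold, 1.42-fold and 1.30-fold against replicates 2 to 4. Of the 9, 0 passed the limma threshold, and 0 had an unadjusted p under 0.05.

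ATMAP65-6, a gene for a microtubule-associated protein, did pass it (-0.89 ± 0.19, adjusted p = 0.016) in all 18 alternatives. It read 7.84, 7.97 and 7.82 in phyABCDE, 7.99, 7.83 and 8.21 in phyABDE, and 8.83, 8.71, 9.07 and 8.79 in wild type. The nearest arrays of mutants and wild type were 0.51 units apart.

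Among 29 expansin and XTH genes, which act on the cell wall during growth, EXPA8, EXPA4 and EXLA2 were lower members and XTH32 a higher one. The median was -0.06. Over all probe sets, 6.48% were lower and 5.88% higher members, the shares to set beside each count in this paragraph. None of the 29 was called by limma (5 at an unadjusted p under 0.05). EXPA8 read 10.24, 10.04 and 10.02 in phyABCDE, 9.99, 9.82 and 9.92 in phyABDE, and 10.76, 10.77, 10.65 and 10.88 in wild type (-0.75 ± 0.26, limma adjusted p = 0.16). The lists of the next 4 families were added after values were seen. The TBL family, which acetylates wall polysaccharides, had 5 lower members of 23 and a median of -0.35. TBL23, TBL25, TBL28, TBL38 and TBL39 lay between -0.5 and -0.54. Cellulose synthase-like genes had 2 of 8 (CSLC04 and ATCSLC08), with a median of -0.41 that was -0.16 against replicate 1 and -0.49 against replicates 2 to 4. TRM genes had 3 of 15 (median -0.19) and IQD genes 3 of 15, beside 1 higher member, IQD27 (median -0.26). Of these 4 families, limma called 1 IQD gene lower and 0 of the TBL, cellulose synthase-like and TRM genes (6, 0 and 1 at an unadjusted p under 0.05).

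Auxin and shade genes, a list added after values were seen, had 3 lower members of 14, beside 6.48% of all probe sets. Of 14, the members were IAA34 and GH3.17, which belong to auxin signalling and auxin conjugation, and the homeobox gene HAT2, and the median was -0.46, but -0.20 against replicate 1 alone and -0.51 against replicates 2 to 4. HAT2 read 9.12, 8.84 and 8.93 in phyABCDE, 9.0, 8.93 and 8.93 in phyABDE, and 9.26, 9.61, 9.66 and 9.67 in wild type, where replicate 1 was the array nearest the mutants. MCCA and IVD, enzymes of leucine breakdown, were members of 6 genes of that pathway, with 1.5-fold and 1.27-fold lower levels against replicate 1 and 2.47-fold and 1.64-fold against replicates 2 to 4. Of the auxin and shade genes 0 passed the limma threshold (4 at an unadjusted p under 0.05), and of the leucine genes also 0 (2 at an unadjusted p under 0.05). The leucine list was also added after values were seen. The planned list of 8 auxin-responsive genes held 1 lower member.

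AT5G44680 had the smallest limma adjusted p of the named lower members, with -1.08 ± 0.16 (adjusted p = 0.0015), in all 18 alternatives. GSTU26, a glutathione transferase gene, read 7.59, 7.31 and 7.04 in phyABCDE, 6.97, 6.77 and 6.88 in phyABDE, and 8.02, 7.97, 8.15 and 8.09 in wild type. The locus AT1G04350 read 4.12, 3.73 and 3.69, then 4.04, 3.88 and 3.78, against 5.14, 5.47, 5.20 and 4.85. In GSTU26 phyABDE was the lower mutant, and in AT1G04350 the mutants overlapped. The limma call of AT1G04350 (-1.27 ± 0.22, adjusted p = 0.0036) held in 17 of 17 alternatives. That of GSTU26 (-0.93 ± 0.23, adjusted p = 0.047) held in 8 of 18 and was lost, among others, without wild-type replicate 2 or 3 (-0.93 each), without phyABCDE replicate 2 (-0.93) or 3 (-0.86) and without phyABDE replicate 2 (-0.90) or 3 (-0.93). AT2G30670 had the largest fold of the named lower members, 4.59 and 4.31, but its wild-type arrays ran from 4.17 to 6.64 and it did not pass (adjusted p = 0.078).

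**Figure D4:**
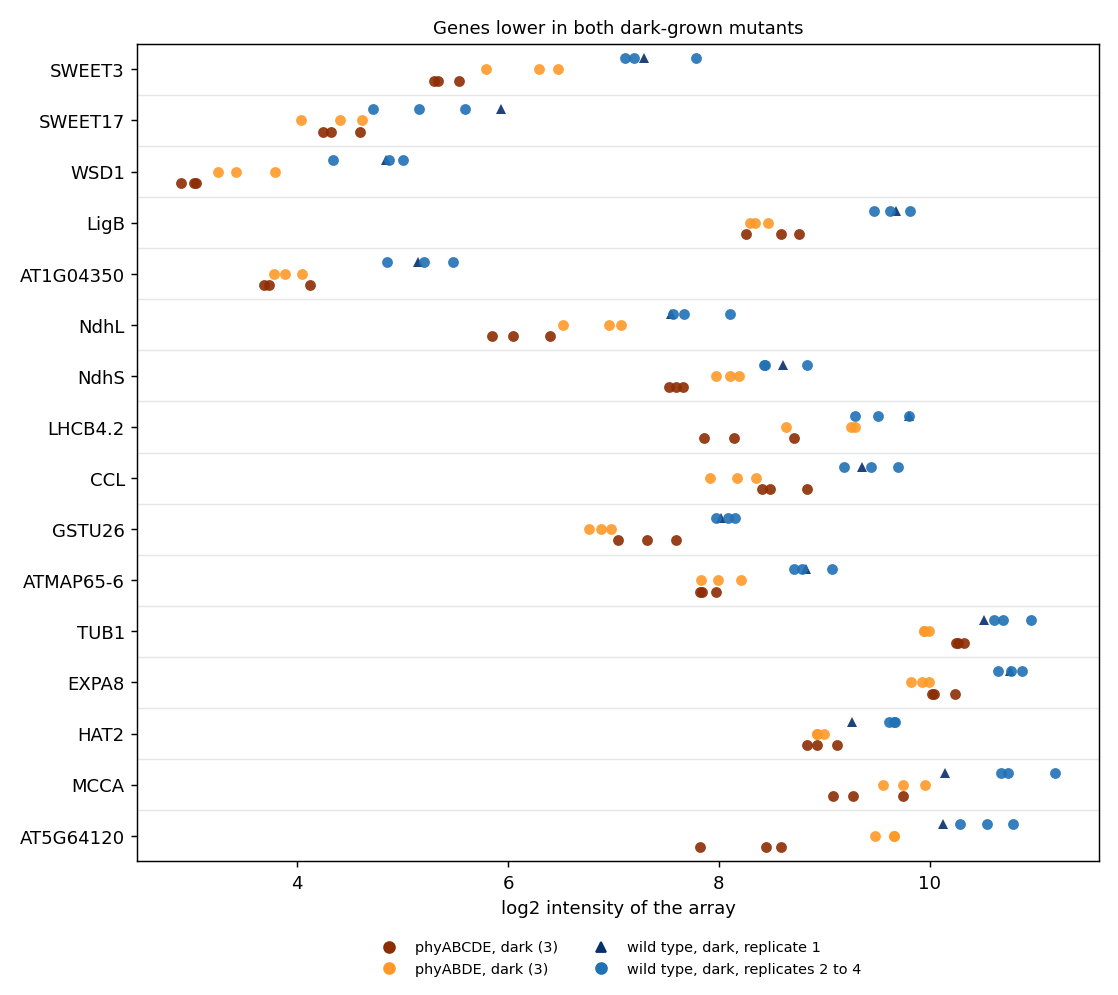
The log2 intensity of 16 lower members is shown in each of the 10 dark arrays, with the triangle for wild-type replicate 1. The mutants lie left of wild type for each gene; their nearest arrays are 0.71 units apart for LigB, 0.19 for TUB1 and MCCA, 0.14 for HAT2 and 0.0070 for LHCB4.2.

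The 2 mutants, which are both of 1 kit, were compared directly. The rule did not use this contrast but did use the same dark mutant arrays, so the counts among members are descriptive. phyABCDE and phyABDE differed at 529 probe sets (2.33%) by limma, 306 (1.35%) higher and 223 (0.98%) lower in phyABCDE, a total that was 245 without phyABDE replicate 1 and 268 without phyABDE replicate 3. Of the 1338 higher members, 50 were called higher and 5 lower in phyABCDE, and of the 1475 lower members, 4 higher and 16 lower. In both sets most of these calls had phyABCDE farther from wild type than phyABDE.

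Most seed genes stood higher in phyABCDE without passing that test, given the spread within phyABDE. M17 differed by 1.00 ± 0.70 (limma adjusted p = 0.62) and AGL67 by 1.94 ± 0.54 (adjusted p = 0.067). PDF2.1 passed (2.48 ± 0.57, adjusted p = 0.022), yet not without phyABCDE replicate 1 (2.40) or 2 (2.29) or phyABDE replicate 1 (1.83) or 3 (2.60). Hop3 passed (1.35 ± 0.26, adjusted p = 0.0069) and lost its call without phyABDE replicate 1 alone (1.08). AT3G14880 read 7.43, 6.77 and 6.17 in phyABCDE, 4.56, 5.71 and 4.97 in phyABDE and 3.55 to 4.35 in wild type, and its call (1.71 ± 0.32, adjusted p = 0.0044) held in 12 of 12 alternatives.

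Fewer higher members stood farther from wild type in phyABDE. AT4G05040 read 3.82, 4.08 and 3.80 in phyABCDE, 5.29, 5.33 and 4.70 in phyABDE, and 3.35, 3.09, 3.47 and 3.25 in wild type, so phyABCDE was close to wild type and phyABDE above both (-1.2 ± 0.16 for phyABCDE minus phyABDE, limma adjusted p = 0.00018, in 12 of 12 alternatives). AT4G07820 differed by -1.19 ± 0.24 (adjusted p = 0.010), a call lost without phyABDE replicate 3 (-1.13). Among the lower members, AT5G64120, listed with the synonym of a peroxidase, read 8.45, 7.82 and 8.59 in phyABCDE, 9.48, 9.66 and 9.66 in phyABDE, and 10.12, 10.79, 10.28 and 10.54 in wild type. phyABDE thus lay between the others (-1.32 ± 0.28, adjusted p = 0.013), and the call was lost without phyABCDE replicate 2 (-1.08) or phyABDE replicate 3 (-1.29).

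Each mutant was also set against wild type, with the wild-type arrays shared by both. In phyABCDE limma called 819 probe sets (3.6%), 1.9% higher and 1.7% lower, and in phyABDE 183 (0.805%), 0.382% higher and 0.422% lower. The first count was 529 without phyABCDE replicate 2, and the second 118 without phyABDE replicate 2 and 98 without phyABDE replicate 3. Of the higher members, 264 were called in phyABCDE and 72 in phyABDE, and of the lower members 140 and 42. The rule used the same dark arrays, so nothing is read from the counts among members.

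The R50 arrays, none of which entered the rule, gave the mutant difference a second time under continuous red light. Of the 1338 higher members, 704 were called higher and 38 lower in R50 mutants than in R50 wild type, beside 16.7% and 16.1% of all probe sets. Of the 1475 lower members, 603 were called lower and 160 higher. R50 mutant and wild-type arrays did not overlap, in the member's dark direction, for 712 higher and 637 lower members, beside 21% and 19.1% of all probe sets. The median R50 difference was 0.45 for higher and -0.28 for lower members, beside 0.04 over all probe sets. The R50 wild-type arrays came from the earlier deposit, so kit and genotype cannot be told apart here. The 7474 calls over the whole array (32.9%) were 4485 without R50 wild-type replicate 2. With the kit term, which brings the dark wild-type arrays back in, they were 2625.

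Several seed genes also differed widely under R50. M17 read 11.65, 10.995 and 11.36 in R50 phyABCDE, 7.66, 11.36 and 10.84 in R50 phyABDE, and 5.03 and 4.09 in R50 wild type, a log2 difference of 6.09 ± 0.71 (limma adjusted p = 1.5e-06). PAP85 differed by 4.66 ± 0.78 (adjusted p = 0.00010) and AGL67 by 3.80 ± 0.54 (adjusted p = 1.6e-05). The R50 calls of all 3 held in 15 of 15 alternatives. For M17 the lowest R50 mutant array was phyABDE replicate 1, a different sample from dark phyABDE replicate 1. Whether arrays of equal replicate number are linked across light conditions was not tested. Of the 25 higher members named by size, 22 were called higher under R50 and none lower, while AT1G04560, ATOEP16-2 and CML38 were not called. Over all higher members 52.6% were called higher, and over all probe sets 16.7%. Of the 22 calls, 11 held in every alternative and 11 were lost with the kit term, among them those of LCR67 (3.82, adjusted p = 0.077), PDF2.1 (1.86, adjusted p = 0.28) and M10 (2.35, adjusted p = 0.24). LEA (2.05 ± 0.74, limma adjusted p = 0.038) held in 7 of 15 alternatives.

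The lower members divided under R50. Of the 25 named by size, 16 were called lower, 4 higher and 5 neither way. Over all lower members 40.9% were called lower and 10.8% higher, and over all probe sets 16.1% and 16.7%. Of the 16 calls, 9 held in every alternative and 6 were lost with the kit term, where AT5G23400 stood at -0.13 (adjusted p = 0.86) and ALN at -0.31 (adjusted p = 0.58), while AT4G13860 lost its call without R50 wild-type replicate 2 (-0.69). Genes of the photosynthetic apparatus and CCL differed more under R50 than in darkness. NdhL read 6.58 to 7.60 in R50 mutants and 9.56 and 9.37 in R50 wild type (-2.41 ± 0.22, limma adjusted p = 6.3e-08), and LHCB4.2 read 8.73 to 10.24 against 11.67 and 11.72 (-2.34 ± 0.27, adjusted p = 1.2e-06). NdhS (-2.20 ± 0.14, adjusted p = 5.9e-10) and CCL (-3.12 ± 0.20, adjusted p = 6.0e-10) followed. AT1G04350 stayed between 3.75 and 4.29 in R50 mutants and read 8.37 and 8.49 in R50 wild type (-4.36 ± 0.16, adjusted p = 1.8e-13). For these genes the wild-type level was higher under R50 than in darkness, while the mutant arrays mostly stayed within or below the dark wild-type range, and LHCB4.2 reached 10.24 in 1 phyABDE array. No test was made of the difference between the 2 light conditions.

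SWEET3 and WSD1 went the other way. SWEET3 read 4.95 to 5.76 in R50 mutants and 4.68 and 4.50 in R50 wild type (0.68 ± 0.22, limma adjusted p = 0.021), and WSD1 read 3.13 to 4.22 against 2.82 and 2.78 (0.75 ± 0.21, adjusted p = 0.0077). R50 mutants thus had higher levels than R50 wild type, in which both genes stood below their dark level. Both calls were lost with the kit term (0.75 and 0.65), that of SWEET3 also with 16 added (0.45), and both without R50 wild-type replicate 1 (0.77 each) or 2 (0.59 and 0.73). AT3G42800 and GSTU26 were the other 2 genes called higher, in 9 and 11 of 15 alternatives. TUB1, a lower member in darkness, was higher in R50 mutants too, with 9.63 to 10.49 in R50 mutants against 7.74 and 7.37 in R50 wild type (2.56 ± 0.15, adjusted p = 1.8e-10). The ATMAP65-6, LigB and EXPA8 genes were not called under R50.

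**Figure D5:**
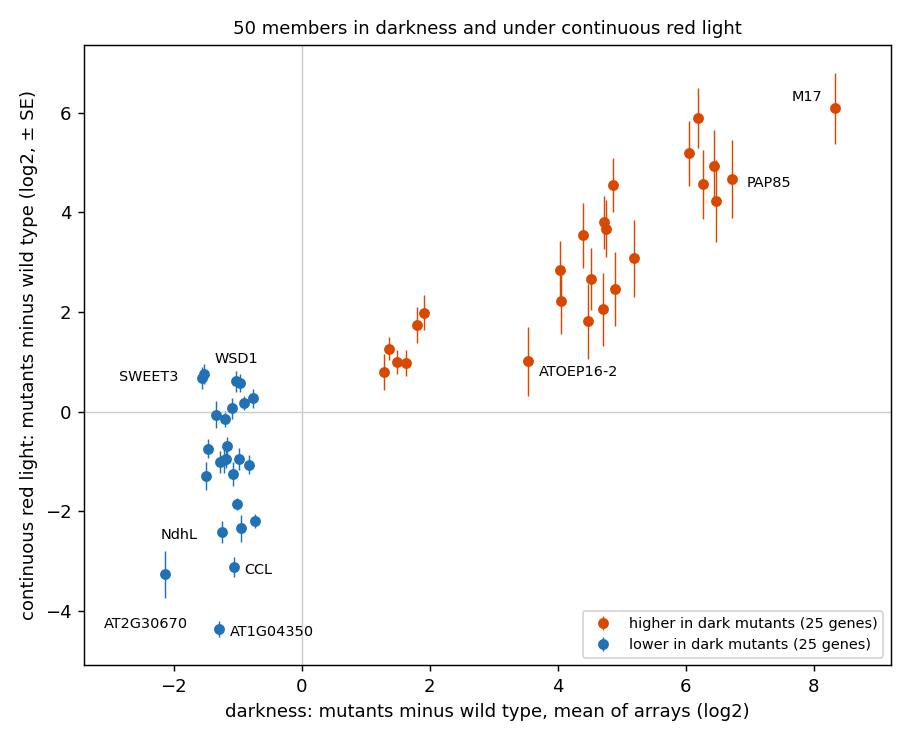
Each point is 1 of the 50 members named by size. The x axis gives the mutant minus wild-type log2 difference in darkness (mean of arrays), which the rule used, and the y axis the limma difference under R50 with its SE. The 25 higher members all have positive R50 values, up to 6.09 for M17, while the 25 lower members run from -4.36 for AT1G04350 to 0.75 for WSD1.

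Members were spread over the genome. By chromosome, 5.10% to 6.09% of named probe sets were higher and 5.19% to 6.35% lower members, beside 5.81% and 5.72% over all 5 chromosomes. Within 100 genes on either side of each phytochrome gene in the gene order of the RefSeq table, the shares were 4.04% to 7.59% higher and 2.97% to 8.86% lower, on 63 to 101 named probe sets per window.

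Markers of other cells in the seedling were checked beside these results. The 9 light-harvesting and photosystem genes, which mark green cells, had mean log2 levels of 9.74 to 10.03 in dark phyABCDE, 9.98 to 10.41 in dark phyABDE and 10.07 to 10.43 in dark wild type, so phyABCDE lay below wild type and phyABDE overlapped it. The 3 measured root hair and root wall genes held no member, with a median difference of -0.19. Their part in the differences above was not tested.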

How the data were processed

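Values were the intensities deposited by the authors, linear and 1 per probe set and array. RMA, GCOS and limma appear in the submitters' processing notes with no role or version, and the steps between scan and table are otherwise not given in the sources used here. The array medians were close, so intensities were taken as log2 with no further normalization. Of 22810 probe sets 64 controls were left out. GEO's platform annotation names 1 gene for 13513 of the 22746 tested, several for 503 and none for 8730; 13436 of the first matched the RefSeq table of assembly TAIR10.1, used for names and gene order. The series text gives the One-cycle kit for 5 wild-type arrays (dark replicates 2 to 4 and R50) and the 3' IVT Express kit elsewhere. The sample labels give the latter throughout, and the series text was followed.

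Contrasts were fitted with limma 3.58.1 in R 4.3.3 (lmFit, eBayes, 13 residual degrees of freedom) over all 22 arrays with a mean per group and a kit term, except R50, which was fitted without the kit term because that term would bring back the dark wild-type arrays. Benjamini-Hochberg adjustment ran over all probe sets per contrast, with calls at an adjusted p under 0.05. The script was tested on simulated data. Differences in darkness weigh both mutants equally.

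The members and gene lists were chosen with earlier results of these data known. The text names the 15 highest and 15 lowest members with 1 gene by the smaller of their 2 differences to wild type, the next 10 each way with a symbol, up to 4 members per list and the 6 largest called each way between the mutants. OLEO3, LEA18, AtLEA4-1, LEA4-5, PIFI, TBL25 and the members at the edge of the rule were named after their values were seen. The lists were matched to gene symbols and synonyms, since the tables used hold no gene descriptions: 16 of 22 planned lists had a measured gene, and 17 lists were added after values were seen. Lists not described in the results are given here, beside 5.88% of all probe sets kept as higher and 6.48% as lower. Of planned ones, abscisic acid, light signalling, flavonoid and jacalin-related genes held 0, and nuclear photosynthesis and auxin-responsive genes 1 lower each. P450 genes held 2 lower of 24 and glutathione transferases 1 each way of 12. The list searched by the words defensin and thionin held 3 higher and 1 lower of 20. That search also took in genes with methionine in their names, among them the higher MAP1C and the lower SAMDC, so the defensins are counted in the results by their own symbols. Of added ones, RALF-like genes held 3 lower of 11, carboxypeptidase-like genes 2 higher and 3 lower of 29, beta-glucosidases 2 higher of 22 and myosins XI 2 lower of 5. Tables and plots used pandas 2.3.3, matplotlib 3.10.9 and numpy 2.4.6 in Python 3.11.15. Alternatives were no kit term, only the arrays compared, a replicate block, array weights, an offset of 16, quantile normalization, brighter probe sets, either kind of dark wild type alone, and each array left out.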

Additional observations from a re-analysis of the deposited data

Results flagged for a closer look

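In dark wild type, 6 of the 105 named genes had 1 array apart from the other 3 by Dixon's criterion, which chance meets in about 1 of 20 groups, so that 6 is close to the number chance gives. AT2G07708 stood high in replicate 3, at 6.02 log2 units. Low values were 8.17 for AT5G44680 in replicate 2, 9.26 for HAT2 in replicate 1, 6.87 for XTH32 and 5.64 for NRPA2 in replicate 3, and 3.90 for AT2G38905 in replicate 2. The low XTH32 and NRPA2 arrays are farther from the mutants than the rest, whereas the low AT5G44680 and HAT2 arrays are nearer to them.

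Both mutants differed from each other (phyABCDE minus phyABDE, limma, log2) at 13 named members. phyABCDE was higher for PDF2.1 (2.48), AT1G13340 (2.39), AT4G18650 (1.78), AT3G14880 (1.71), AT2G38905 (1.71), AT2G38465 (1.69) and Hop3 (1.35), all higher members. It was lower for the higher members AT4G05040 (-1.20) and AT4G07820 (-1.19). It was also lower for the lower members AT5G64120 (-1.32), AT5G23400 (-0.63), AT3G13040 (-0.62) and AT5G17780 (-0.55). Of these 13 calls, 2 held in every alternative, those of AT3G14880 and AT4G05040.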

How the results depend on the processing

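The 10 dark arrays, of which 1 wild-type array shares the mutants' kit, set the limits. Without the kit term the calls against dark wild type went from 446 to 6541 for both mutants, from 819 to 5562 for phyABCDE and from 183 to 4441 for phyABDE, and with replicates 2 to 4 as the only dark wild type to 7881, 7040 and 6235. With only the arrays compared they were 232, 423 and 61, and 306 in place of 529 between the mutants; fewer arrays then estimate the spread. R50 calls went from 7474 to 2625 with the kit term. Members numbered 8852 against wild-type replicate 1 alone, 6094 against replicates 2 to 4 alone, and 196 where a gap of at least 0.5 log2 units was asked. The cause of the other moves was not tested. Leaving out 1 array gave 328 to 552 calls for both mutants, 529 to 966 for phyABCDE, 98 to 246 for phyABDE, 245 to 630 between the mutants, 4485 to 7216 for R50, 2813 members rising to between 3011 and 6094, 106 to 144 higher members at 4-fold and 35 to 546 lower members at 2-fold. The last 2 of these counts were tested after seeing the data. Without wild-type replicate 1 the kit term could not be fitted, so the fits against replicates 2 to 4 alone have no kit term.

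Equal replicate numbers did not pair the dark arrays: deviations from the group means correlated at -0.11, -0.16 and -0.04 between the mutants and at -0.03 to 0.17 with wild type. With the replicate block, calls were 440 for both mutants, 974 for phyABCDE, 176 for phyABDE, 618 between the mutants and 7747 for R50. Of the 34 genes called among the 50 named by size, 22 kept the call in every alternative, and no direction reversed. Of 74 named genes called under R50, 30 kept the call in every alternative.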
